A study of Homo sapiens with 33 samples.

Results

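Matrix metalloproteinases (MMPs) and their tissue inhibitors (TIMPs) were described here by 10 genes chosen by symbol, namely MMP1, MMP13, MMP3, MMP10, MMP2, MMP9, MMP14, TIMP1, TIMP2 and TIMP3, out of 56470 gene rows in the count table of the series. RNA was sequenced from 3 head and neck squamous cell carcinoma (HNSCC) lines, SCC1, SCC6 and SCC25, which received either 100 nM cetuximab, an antibody that blocks the epidermal growth factor receptor (EGFR), or PBS as the untreated control, with medium changed daily. The 33 libraries comprise PBS on days 0 to 5 in each line (6 per line) and 5 cetuximab libraries per line. The cetuximab comparisons used the 5 PBS libraries of days 1 to 5 against the 5 cetuximab libraries, so that days take the place of replicates and the p-values measure the spread between days, which holds both culture time and technical variation. In SCC1 and SCC25 the cetuximab libraries are labelled days 1 to 5. In SCC6 the labels give day 2 to 2 cetuximab libraries and day 1 to none, and these libraries are called 2a and 2b in the order of the sample list.

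The models are established tumour lines grown without other cells, and each group is a single line. Per the labels SCC1 and SCC25 received hydrocortisone at different concentrations, whereas SCC6 was kept in high-glucose medium with non-essential amino acids and no hydrocortisone is named, while the methods of the study name a single medium for all 3 lines. If the labels hold, line and medium cannot be told apart. The run codes in the titles also place the lines mostly on different flow cells: with PBS, all 5 SCC25 libraries of days 1 to 5 share 1 flow cell, 4 of 5 in SCC1 share another and 4 of 5 in SCC6 a further one. All 5 SCC1 cetuximab libraries lie on the flow cell of the PBS library of day 5, so treatment and flow cell can hardly be told apart there. The cetuximab libraries of days 3 to 5 in SCC25 and of days 4 and 5 in SCC6 lie on flow cells that hold no PBS library of their line. Each library summed to between 28508758 and 80727478 estimated counts. Of 12 squamous markers such as KRT5 and TP63, at least 11 had a mean of 1 CPM (reads scaled to a common library size, by TMM over all libraries) or more in every group. In SCC6 with PBS, however, the means were low for KRT5 (2.36 CPM), KRT14 (3.93), DSG3 (2.85) and PKP1 (0.882). Others were high there, such as KRT17 (548 CPM) and CDH1 (750). KRT5 with PBS had a mean of 545 CPM in SCC1 and 5405 CPM in SCC25. EGFR, the target of the antibody, lay between 576 and 1150 CPM with a lower mean with PBS than with cetuximab in each line, which says nothing of receptor activity.

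MMPs are zinc-dependent endopeptidases that are made as inactive proenzymes and that cleave collagens, basement membrane and other matrix proteins. Most are secreted, whereas MMP14 (MT1-MMP) sits in the plasma membrane, where together with TIMP2 it activates the MMP2 proenzyme. TIMPs bind the active site of MMPs and block it. In squamous carcinoma these enzymes are known for breaking down basement membrane and stroma at the invasive front, and transcription of several MMP genes is known to respond to growth factor signalling through AP-1 and ETS sites in their promoters.

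MMP1, MMP3, MMP10 and MMP13 lie in 1 cluster on chromosome 11 (GRCh37, chr11:102641233-102826461, 185.2 kb), which also holds MMP12, and all 4 are on the minus strand. The other members are spread over chromosomes 14, 16, 17, 20, 22 and X. Promoter sequences were held for 4 members in the RefSeq table used here (GRCh38.p14). MMP1, MMP13, MMP3, MMP2, MMP9 and TIMP2 are not in it. The 250 bases before the start site are shown for these 4, the only members the table holds. With cetuximab MMP10 fell in SCC6, MMP14 rose in SCC6 and, by less, in SCC25, TIMP1 fell in every line and TIMP3 rose in SCC1. Capitals mark matches, on either strand, to the AP-1 motif TGANTCA or to the ETS motif AGGAAG, which do not overlap each other. The MMP10 window is chr11:102780629-102780878 on the minus strand, that of MMP14 is chr14:22836335-22836584, that of TIMP1 is chrX:47582186-47582435 and that of TIMP3 is chr22:32801455-32801704, the last 3 on the plus strand.
MMP10: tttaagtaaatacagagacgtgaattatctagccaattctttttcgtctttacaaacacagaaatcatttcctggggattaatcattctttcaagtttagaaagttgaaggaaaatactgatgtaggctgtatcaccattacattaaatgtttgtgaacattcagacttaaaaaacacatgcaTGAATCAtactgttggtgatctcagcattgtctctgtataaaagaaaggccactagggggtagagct
MMP14: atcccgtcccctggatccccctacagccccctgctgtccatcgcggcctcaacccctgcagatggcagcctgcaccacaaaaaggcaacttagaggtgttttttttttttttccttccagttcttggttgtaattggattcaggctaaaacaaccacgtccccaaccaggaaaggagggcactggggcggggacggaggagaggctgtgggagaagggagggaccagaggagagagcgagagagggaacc
TIMP1: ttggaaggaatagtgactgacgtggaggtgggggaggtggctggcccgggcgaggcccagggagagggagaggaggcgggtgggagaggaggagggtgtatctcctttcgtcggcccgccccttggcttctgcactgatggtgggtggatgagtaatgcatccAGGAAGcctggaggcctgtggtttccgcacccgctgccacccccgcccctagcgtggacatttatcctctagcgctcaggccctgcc
TIMP3: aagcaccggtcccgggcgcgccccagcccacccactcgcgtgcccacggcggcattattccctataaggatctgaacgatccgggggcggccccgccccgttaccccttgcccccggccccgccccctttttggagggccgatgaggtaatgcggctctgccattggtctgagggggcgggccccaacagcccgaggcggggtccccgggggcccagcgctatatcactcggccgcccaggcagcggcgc

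In the MMP10 window the AP-1 letters TGAATCA begin 67 bases before the start site and the letters TATAAA 31 bases before it. The TIMP1 window holds AGGAAG 87 bases before the start, and neither motif was found in the windows of MMP14 and TIMP3. Over 35116 promoters in the table, 6.57% hold TGANTCA, 28.7% hold AGGAAG (both strands) and 6.8% hold TATAAA (forward strand). These matches describe letters only and say nothing of binding.

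Which of the 10 genes responded to cetuximab was asked first, within each line. In SCC1, 6 of the 9 members that passed the filter on low counts had a Benjamini-Hochberg adjusted p under 0.05 (edgeR quasi-likelihood test over all genes), beside 44.5% of all genes tested. Of these, 2 rose and 4 fell, beside 22.5% and 22% of all genes. In SCC6, 8 of 10 members were called, beside 30.1%, with 4 higher (15.5%) and 4 lower (14.5%). In SCC25, 6 of 10 were called, beside 18.2%, with 3 higher (8.72%) and 3 lower (9.47%). MMP3 and TIMP1 fell and TIMP2 rose in all 3 lines. The median log2 fold change of the members was -0.53 in SCC1, -0.54 in SCC6 and 0.28 in SCC25, where the median of all genes tested was 0.02, 0.0039 and 0.0062. The libraries of the treatments did not overlap in CPM for 6 members in SCC1 (31.3% of all genes), 7 in SCC6 (19.4%) and 5 in SCC25 (14.6%). MMP10 in SCC1 was the only member filtered out of these comparisons, with 1 to 3 estimated counts per PBS library of days 1 to 5 and 0 to 2 per cetuximab library, and no fold change is given for it.

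**Figure D1:**
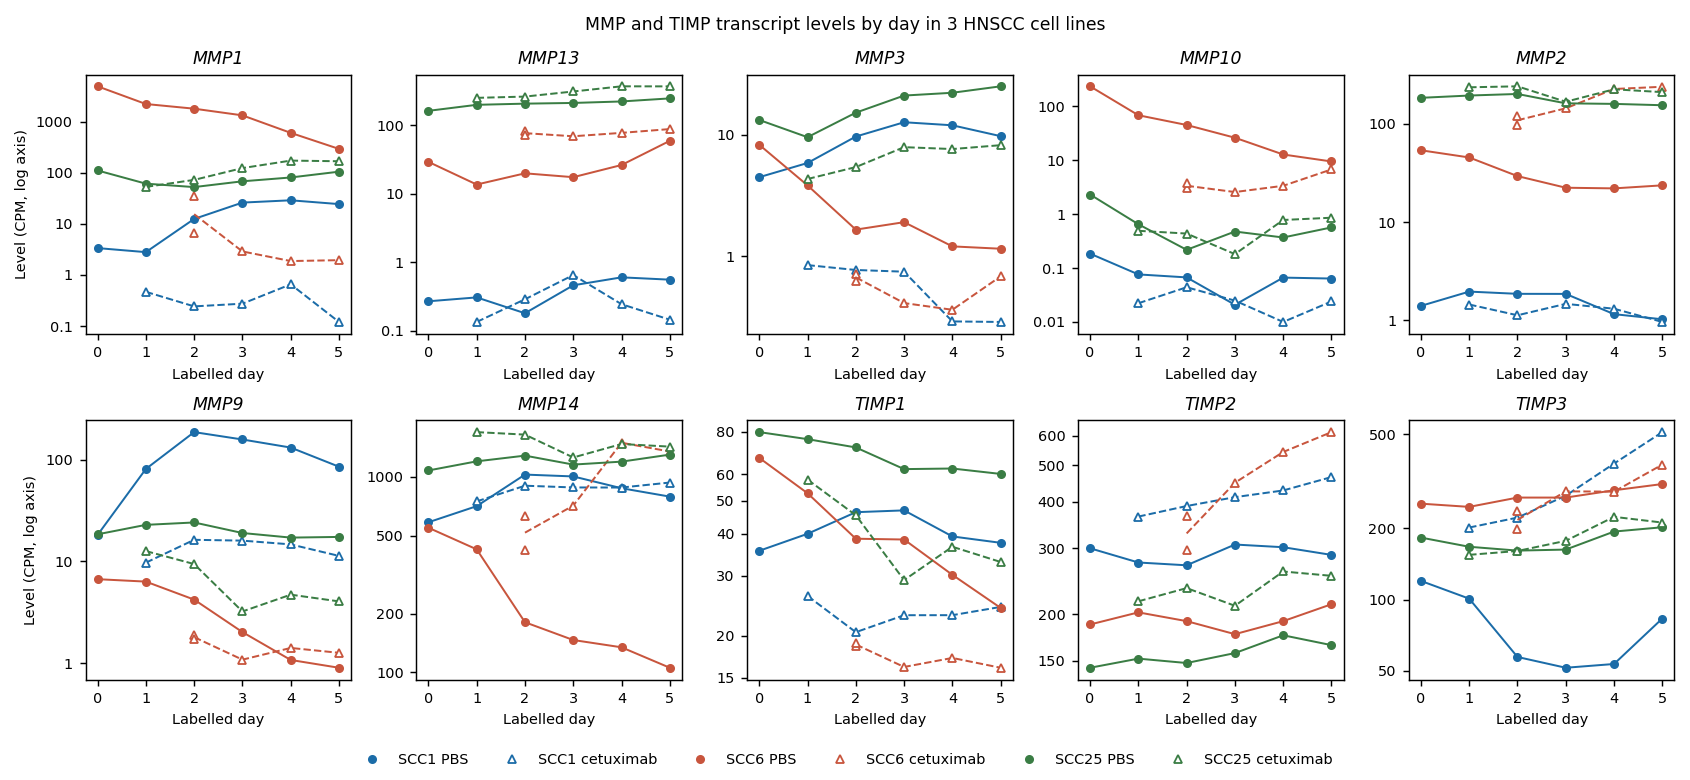
Level of each gene in CPM (log axes, 1 scale per panel) against labelled day in the 33 libraries. Filled circles and full lines are PBS, open triangles and dashed lines are cetuximab, and the line joins the geometric mean of libraries that share a day. A value of 0 is drawn at 0.01. MMP1 in SCC6 falls from 4936 to 294 CPM over the PBS days and lies between 1.87 and 35.5 CPM with cetuximab.

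Among the collagenases, which cut fibrillar collagen, MMP1 (interstitial collagenase) had the largest log2 fold change of the tested members in SCC1 and in SCC6. In SCC1 the PBS libraries of days 1 to 5 measured 2.80, 12.5, 26.1, 28.9 and 24.4 CPM, and the cetuximab libraries 0.467, 0.242, 0.274, 0.655 and 0.120 CPM. The PBS level of day 1 was the lowest of its group. Every cetuximab library lay below every PBS library, including that of day 5, the only PBS library on the cetuximab flow cell. This was a log2 fold change of -5.72 ± 0.737 (SE, n = 5 and 5) with an edgeR adjusted p of 0.00024. The cetuximab libraries held 5 to 27 estimated counts of MMP1, so the size of this change rests on values near the floor. In SCC6 MMP1 with PBS was at 2222, 1800.3, 1333, 605 and 294 CPM on days 1 to 5. With cetuximab it was at 6.73 (2a), 35.5 (2b), 2.88, 1.87 and 1.95 CPM. Again the groups did not overlap, although library 2b stood above the other 4 cetuximab libraries, including 2a of the same label. The log2 fold change was -7.04 ± 1.04 with an edgeR adjusted p of 0.00053.

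In SCC25 the MMP1 levels of the treatments overlapped. PBS libraries of days 1 to 5 held 61.3, 52.5, 68.1, 81.0 and 105 CPM, and cetuximab libraries 53.0, 72.6, 124, 173 and 168 CPM. Cetuximab was lower than PBS on day 1 and higher on days 2 to 5. The difference of 0.68 ± 0.329 (log2) did not pass the test (edgeR adjusted p = 0.18). All 5 PBS libraries and the cetuximab libraries of days 1 and 2 share 1 flow cell, read from the run codes in the titles, and within it the MMP1 difference was -0.22 (adjusted p = 0.71). Over all alternatives run for this value the adjusted p ranged from 0.054 to 0.71. The fall of MMP1 differed from the response of SCC25 by -6.42 ± 1.16 log2 units in SCC1 (edgeR adjusted p = 0.00046) and by -7.74 ± 1.01 in SCC6 (5.3e-06), whereas SCC1 and SCC6 were not called different (1.32 ± 1.34, 0.55).

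MMP13 (collagenase 3) rose in 2 of the lines. In SCC6 it was at 13.6, 19.8, 17.4, 26.2 and 59.2 CPM with PBS and at 82.6 (2a), 71.0 (2b), 69.0, 77.4 and 87.9 CPM with cetuximab. No cetuximab library fell as low as the highest PBS library, that of day 5, and the log2 fold change was 1.46 ± 0.331 (edgeR adjusted p = 0.0066). In SCC25 MMP13 rose by 0.52 ± 0.111 (0.0081), from 199 to 247 CPM with PBS to 251 to 370.4 CPM with cetuximab. Within 1 flow cell MMP13 missed the threshold in both lines: the difference was 1.26 in SCC6 (adjusted p = 0.07) and 0.25 in SCC25 (0.056). The adjusted p ranged from 5.2e-05 to 0.07 over all alternatives for SCC6 and from 0.00025 to 0.12 for SCC25. In SCC1 MMP13 was near the limit of detection, with means of 0.419 ± 0.175 CPM with PBS and 0.291 ± 0.209 with cetuximab (SD, n = 5), and was not called (-0.53 ± 0.432, adjusted p = 0.34). Without the cetuximab library of day 3, the highest of its group at 0.647 CPM, the SCC1 difference was -1.04 and was called (adjusted p = 0.05 after rounding).

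**Figure D2:**
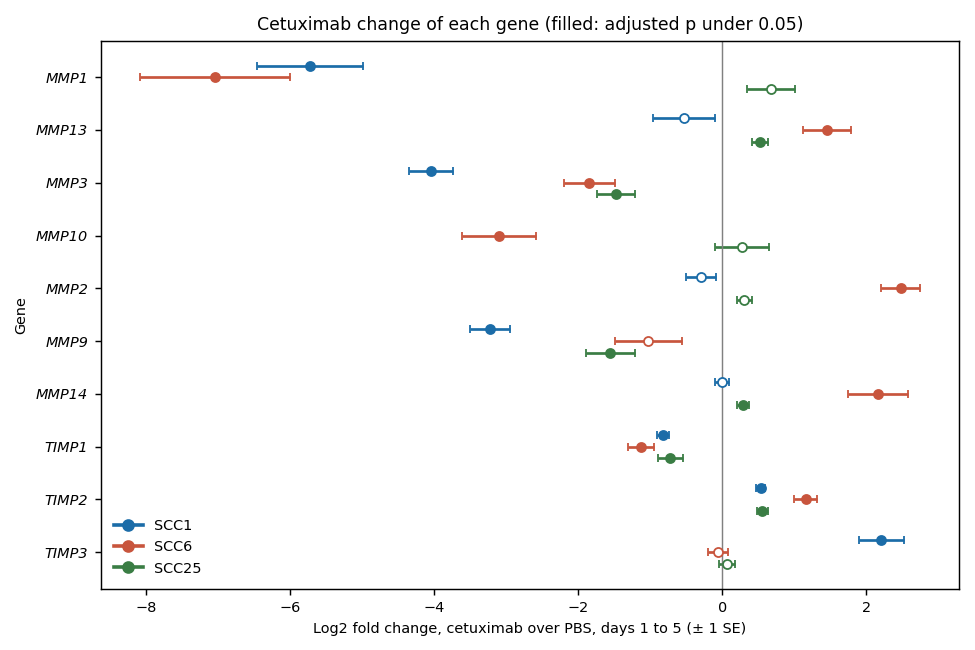
Log2 fold change of each gene, cetuximab over PBS (days 1 to 5), in the 3 lines, with bars of 1 SE calculated from the edgeR F statistic. Filled points have an adjusted p under 0.05 and MMP10 in SCC1 was not tested. MMP1 lies at -5.72 in SCC1 and -7.04 in SCC6 and at 0.68 in SCC25, while TIMP1 lies between -1.13 and -0.72 in all 3.

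The stromelysins MMP3 and MMP10 cleave non-fibrillar matrix and activate other MMP proenzymes. MMP3 (stromelysin-1) fell in every line. In SCC1 it measured 5.85, 9.64, 12.6, 11.9 and 9.71 CPM with PBS and 0.845, 0.771, 0.746, 0.291 and 0.288 CPM with cetuximab. No cetuximab library reached the lowest PBS library, that of day 1, and the log2 fold change was -4.05 ± 0.306 (edgeR adjusted p = 2.2e-06). Its size rests on 12 to 38 estimated counts per cetuximab library. In SCC25 MMP3 was at 9.53, 15.2, 21.0, 22.1 and 25.0 CPM with PBS and at 4.32, 5.41, 7.89, 7.61 and 8.19 CPM with cetuximab, a log2 fold change of -1.48 ± 0.259 (0.0034). Cetuximab was lower on all 5 days, and both series were lowest on their first days. Within 1 flow cell the SCC25 value was -1.92 with an adjusted p of 0.055 (range over all alternatives 5e-08 to 0.055). In SCC6 MMP3 was low throughout, at 1.15 to 3.83 CPM with PBS and 0.363 to 0.720 CPM with cetuximab (-1.85 ± 0.354, 0.0025). The cetuximab libraries there held 16 to 46 estimated counts. The fall was larger in SCC1 than in SCC6 (SCC1 minus SCC6 -2.22 ± 0.503 log2 units, edgeR adjusted p = 0.0019) and SCC25 (SCC1 minus SCC25 -2.59 ± 0.447, 0.00023).

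MMP10 (stromelysin-2) was expressed mainly in SCC6. Its PBS libraries held 68.6, 45.2, 26.2, 12.8 and 9.51 CPM on days 1 to 5, and its cetuximab libraries 3.03 (2a), 3.74 (2b), 2.58, 3.36 and 6.77 CPM. The groups did not overlap, but the gap narrowed with time because PBS fell and the last cetuximab library was the highest of its group. The log2 ratio was -4.16 for 2a, set against the mean log2 level of PBS days 1 and 2. It was -3.30 on day 3 and -0.48 on day 5. The log2 fold change was -3.10 ± 0.51 (edgeR adjusted p = 0.0011). In SCC25 MMP10 lay under 1 CPM in all 10 libraries and was not called (0.27 ± 0.373, 0.66). MMP3 and MMP10 share 125 stretches of 31 bases, 6.75% of those of MMP3 and 7.11% of those of MMP10, so part of their reads could be assigned to either. No other pair of members shared any. In SCC6, where MMP10 exceeded MMP3 in every library, the part of MMP10 reads in the MMP3 values was not tested. WTAPP1, a pseudogene that overlaps MMP1, MMP3 and MMP10 on the opposite strand, was at 2.78 to 5.20 CPM in SCC6 and under 0.5 CPM in the other lines, and strand use in the quantification is not given in the sources used here.

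Of the gelatinases, which degrade denatured collagen and type IV collagen of basement membranes, MMP2 (gelatinase A) rose in SCC6. It was at 45.4, 29.4, 22.3, 22.0 and 23.6 CPM with PBS and at 121 (2a), 97.8 (2b), 144, 226 and 238 CPM with cetuximab. All cetuximab libraries lay above all PBS libraries, and the latest were the highest. The log2 fold change was 2.48 ± 0.272 (edgeR adjusted p = 8e-05). In SCC25, where MMP2 with PBS was already at 155 to 201 CPM, the cetuximab libraries held 168 to 241 CPM and the difference of 0.31 ± 0.108 was not called (0.068). With day as a block in the fit, it was (0.30, adjusted p = 0.01), as it was without the cetuximab library of day 3 (0.40, 0.0049) and within 1 flow cell (0.46, 0.018), and over all alternatives the adjusted p ranged from 0.0049 to 0.15. The SCC25 difference was called in 7 of 9 other settings and in 1 of 10 fits with 1 library left out. Cetuximab was higher on all 5 days there. In SCC1 MMP2 stayed between 0.960 and 1.96 CPM in all 10 libraries, and the difference of -0.29 ± 0.21 was not called (0.28). The response of SCC6 exceeded that of SCC1 (SCC1 minus SCC6 -2.80 ± 0.345, adjusted p = 8.5e-07) and that of SCC25 (SCC6 minus SCC25 2.18 ± 0.286, 4.1e-06).

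MMP9 (gelatinase B) fell in SCC1 and SCC25. SCC1 held 80.8, 186, 157, 131 and 85.0 CPM with PBS and 9.70, 16.3, 16.0, 14.7 and 11.3 CPM with cetuximab. Both series were highest on day 2 and the gap was of like size on all 5 days, as the daily log2 ratios ran from -3.51 to -2.90. This gave a log2 fold change of -3.22 ± 0.279 (edgeR adjusted p = 1.8e-05). In SCC25 MMP9 was at 17.1 to 24.1 CPM with PBS. With cetuximab it was at 12.6, 9.41, 3.22, 4.71 and 4.04 CPM (-1.56 ± 0.341, 0.011). The 2 highest of these, days 1 and 2, are the ones sequenced with the PBS libraries, and within that flow cell the MMP9 difference was smaller (-0.86, adjusted p = 0.013). Without the filter on low counts MMP9 in SCC25 missed the threshold (adjusted p = 0.052, range over all alternatives 0.00071 to 0.052). In SCC6 MMP9 was at 6.32, 4.21, 2.02, 1.07 and 0.901 CPM with PBS and at 1.08 to 1.89 CPM with cetuximab. The groups overlapped, since PBS on days 4 and 5 lay at or below the cetuximab libraries, and the difference of -1.03 ± 0.469 was not called (0.12). Without the PBS library of day 5 it was (-1.26, adjusted p = 0.046), and over all alternatives the adjusted p ranged from 0.046 to 0.62.

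MMP14, the membrane-type MMP, had the highest level per kb of exon of the 7 MMPs in every group except SCC6 with PBS. In SCC6 its PBS libraries measured 426, 181, 147, 135 and 106 CPM on days 1 to 5 and its cetuximab libraries 634 (2a), 425 (2b), 713, 1496 and 1349 CPM. One series fell with time and the other was higher on its later days. The log2 ratio was 0.61 for 2b, set against the mean log2 level of PBS days 1 and 2. It was 2.28 on day 3 and 3.67 on day 5. The groups overlapped by 1 library on each side, PBS of day 1 at 426.3 and 2b at 424.7 CPM. Over all libraries the log2 fold change was 2.16 ± 0.418 (edgeR adjusted p = 0.0027). In SCC25 MMP14 was at 1157 to 1301 CPM with PBS and 1258 to 1696 CPM with cetuximab, a rise of 0.29 ± 0.0798 (0.026) that was higher on all 5 days. That call was lost without the PBS library of day 3 (0.28, adjusted p = 0.056), the PBS library of day 4 (0.28, 0.058) or the cetuximab library of day 4 (0.30, 0.052), and over all alternatives the adjusted p ranged from 0.00085 to 0.058. In SCC1 the means were 882 ± 137 CPM with PBS and 871 ± 71.1 with cetuximab (SD, n = 5), with a log2 difference of -0.0015 ± 0.0958 that was not called (0.99) and that turned to 0.05 when libraries were scaled by their totals alone. The rise in SCC6 exceeded the response of SCC1 (SCC1 minus SCC6 -2.19 ± 0.395, 0.00018) and of SCC25 (SCC6 minus SCC25 1.89 ± 0.393, 0.0012).

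Shares of the summed MMP level show how the make-up of the family shifted, as CPM per kb of merged exons (GENCODE release lifted to GRCh37). With PBS, MMP1 made up 66.0% to 89.1% of the 7 MMPs in SCC6 and MMP14 5.29% to 14.1%. With cetuximab MMP1 made up 0.17% to 8.44%, MMP14 59.7% to 80.4%, MMP2 11.9% to 14.4% and MMP13 6.79% to 16.3%. The groups did not overlap in the share of MMP1, MMP14 or MMP2. In SCC1 MMP14 went from 71.2% to 79.6% with PBS to 96.0% to 97.4% with cetuximab, and MMP9 from 16.4% to 25.5% down to 2.33% to 3.44%. In SCC25 MMP14 and then MMP13 made up the largest shares in every library of days 1 to 5, and MMP14 held 61.0% to 64.4% with PBS and 56.0% to 68.8% with cetuximab. The median share there was 8.5% for MMP2 and 6.16% for MMP1 with PBS, and 8.41% and 9.64% with cetuximab, where MMP1 exceeded MMP2 on days 3 to 5, the libraries sequenced on another flow cell. The summed level itself overlapped between treatments in SCC6 (162 to 962 CPM per kb with PBS, 154 to 402 with cetuximab) and in SCC1 (193 to 312 and 167 to 208). In SCC25 it did not overlap (404 to 461 with PBS and 469 to 567 with cetuximab). Shares within 1 library depend on each other and were not tested.

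**Figure D3:**
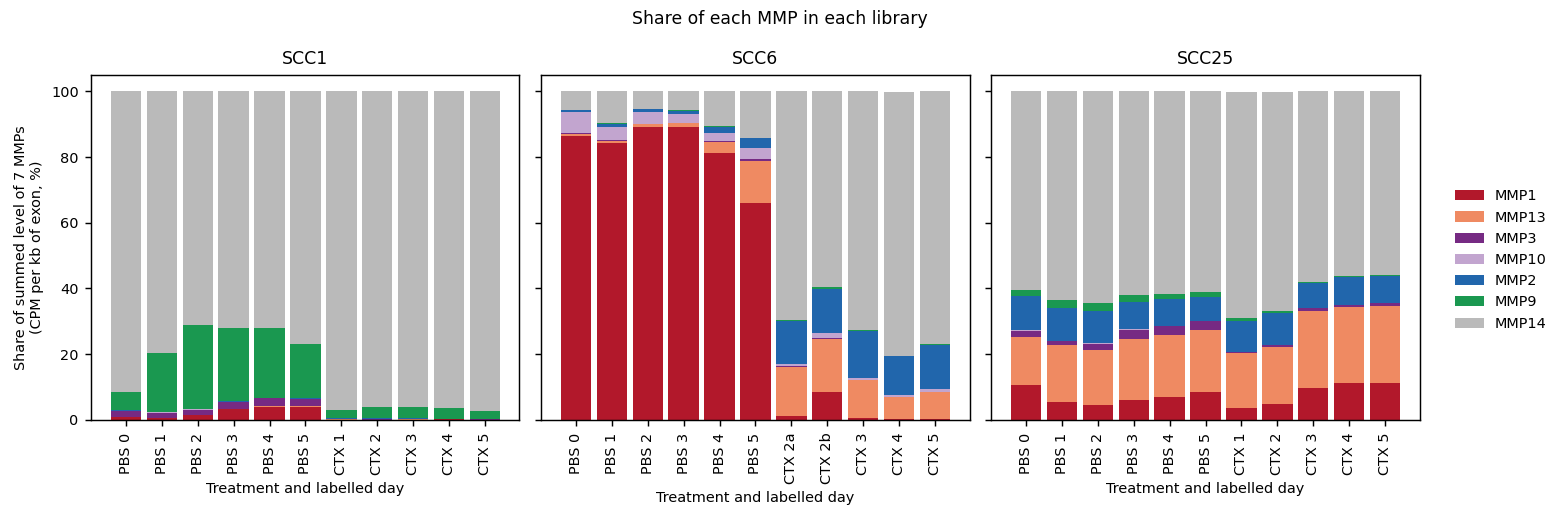
Share of each of the 7 MMPs in their summed level (CPM per kb of exon, percent) in each library, by line, with PBS on days 0 to 5 at the left and cetuximab (CTX) at the right of each panel. Each bar sums to 100% apart from rounding. In SCC6 MMP1 fills 66.0% to 89.1% of the bar on PBS days 1 to 5 and at most 8.44% with cetuximab, where MMP14 fills 59.7% or more.

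Among the inhibitors, TIMP1, which binds most secreted MMPs and the MMP9 proenzyme, fell in all lines. In SCC1 it was at 40.0, 46.3, 46.9, 39.3 and 37.6 CPM with PBS and at 26.2, 20.5, 23.0, 23.0 and 24.3 CPM with cetuximab (-0.83 ± 0.0812, edgeR adjusted p = 5.5e-06). In SCC6 it was at 52.7, 38.7, 38.5, 30.2 and 24.1 CPM with PBS and at 18.6 (2a), 19.0 (2b), 16.1, 17.2 and 16.1 CPM with cetuximab (-1.13 ± 0.178, 0.00079). In SCC25 it was at 76.2, 72.0, 62.1, 62.4 and 60.1 CPM with PBS and at 57.8, 45.4, 29.2, 36.6 and 33 CPM with cetuximab (-0.72 ± 0.168, 0.014). The groups overlapped in none of the lines. Within 1 flow cell the SCC25 value was -0.36 (adjusted p = 0.078) and without the filter on low counts it was -0.72 (0.063, range over all alternatives 0.00026 to 0.1). TIMP1 was the only member whose change was not called different between lines (F test over the 3 lines, edgeR adjusted p = 0.35), and the widest pairwise difference was -0.40 ± 0.219 (SCC6 minus SCC25, 0.22).

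TIMP2, which both inhibits MMPs and takes part in activation of the MMP2 proenzyme by MMP14, rose in all lines. SCC1 held 275, 270.1, 307, 302 and 288 CPM with PBS and 365, 389, 411, 428 and 465 CPM with cetuximab (0.53 ± 0.0639, edgeR adjusted p = 2.5e-05). SCC6 held 202, 191, 177, 191 and 212 CPM with PBS and 365 (2a), 296 (2b), 449, 543 and 614 CPM with cetuximab (1.16 ± 0.16, 0.00033). SCC25 held 152, 148, 157, 175 and 165 CPM with PBS and 216, 235, 210.4, 259.9 and 253 CPM with cetuximab (0.56 ± 0.0725, 0.00045). Every cetuximab library was above every PBS library of its line. The rise was larger in SCC6 than in SCC1 (SCC1 minus SCC6 -0.66 ± 0.161, 0.0037) and SCC25 (SCC6 minus SCC25 0.62 ± 0.161, 0.0077), and SCC1 and SCC25 were not called different (-0.04 ± 0.161, 0.94).

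TIMP3, the inhibitor held in the extracellular matrix, which also blocks several ADAM proteases, rose in SCC1. It was at 101, 57.2, 51.5, 53.4 and 83.1 CPM with PBS and at 201, 222, 275, 375 and 509.7 CPM with cetuximab. The groups did not overlap, and the daily log2 ratio was 1.00 on day 1 and between 1.95 and 2.81 on the later days. Over the 5 days the log2 fold change was 2.21 ± 0.316 (edgeR adjusted p = 0.00045). All 5 cetuximab libraries share a flow cell with the PBS library of day 5, and against that library alone, assumed to vary like the cetuximab libraries, the difference was 1.93 and was not called (adjusted p = 0.13; range over all alternatives 2.5e-10 to 0.13). In SCC6 the means were 277 ± 23.1 CPM with PBS and 276 ± 64.8 with cetuximab, and in SCC25 177 ± 19.2 and 185 ± 30.8 (SD, n = 5). Neither difference was called (-0.06 ± 0.138, 0.78, and 0.06 ± 0.109, 0.74). The response of SCC1 exceeded that of SCC6 by 2.24 ± 0.291 (1.9e-06) and that of SCC25 by 2.13 ± 0.291 (1.1e-05).

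Whether the lines differed was tested on the change itself. The cetuximab change differed between the 3 lines in 9 of 10 members, all but TIMP1 (F test of the line-by-treatment terms in 1 fit of 30 libraries), beside 26% of all genes. By pairs, 7 members differed between SCC1 and SCC6 (19.2% of all genes), 4 between SCC1 and SCC25 (8.5%) and 5 between SCC6 and SCC25 (17.5%). These comparisons share libraries. With flow cell as a covariate 7 members were called in the 3-line test (14.2% of all genes), and MMP13 and TIMP2 were lost (edgeR adjusted p = 0.11 for each).

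Fibroblasts also make MMPs and TIMPs, and several genes listed as fibroblast markers were higher with cetuximab. Among those tested 8 of 8 rose in SCC1 (22.5% of all genes), 4 of 5 in SCC6 (15.5%) and 7 of 12 in SCC25 (8.72%), where 1 fell (9.47%). The filter on low counts can keep a gene through 1 treatment alone. DCN in SCC1 was at most 0.203 CPM with PBS and at least 0.727 with cetuximab, and PDGFRB in SCC6 at most 0.131 and at least 0.561. Genes low in both treatments were not tested, so these counts do not by themselves show a rise of the list. The summed level of the list went from 114 to 195 CPM up to 287 to 577 in SCC1, from 76.3 to 124 up to 220.1 to 1175 in SCC6, and from 961 to 1173 up to 1157 to 1637 in SCC25. COL5A1 was the highest of the list with cetuximab in each line, with a mean of 467 CPM in SCC6. The defining fibroblast genes went different ways. In SCC1 and SCC6 PDGFRA was at most 0.179 CPM and THY1 at most 0.0747 CPM in any library of days 1 to 5, and LUM and DCN at most 1.14 CPM. In SCC6, however, the mean of PDGFRB went from 0.0751 to 4.06 CPM and that of COL3A1 from 0.0312 to 5.56 CPM, and in SCC1 that of FAP from 35.0 to 63.4 CPM. In SCC25 the mean of LUM went from 29.4 to 84.7 CPM and the libraries of DCN from between 3.71 and 8.12 CPM to between 10.7 and 11.6 CPM, while PDGFRA and THY1 had means of at most 1.21 and 2.53 CPM. No fibroblast marker was at 0 in all libraries of a group. Leukocyte markers summed to 5.29 to 54.2 CPM in SCC1 and SCC6 and to 151 to 239 CPM in SCC25, where CD68 (201 CPM with PBS, 162 with cetuximab) made up most and CD3E was at 0. CD68 went from 34.6 to 7.68 CPM in SCC1 and from 17.0 to 4.75 CPM in SCC6, and PTPRC was at most 0.301 CPM in any library of days 1 to 5. CSF1R went the other way, from a mean of 1.05 to 4.34 CPM in SCC1 and from 0.435 to 2.14 CPM in SCC6. CD14 in SCC1 had means of 3.05 CPM with PBS and 4.07 CPM with cetuximab. MS4A1 was at 0 in all libraries of 3 groups and LYZ in all cetuximab libraries of SCC1. Endothelial markers summed to at most 18.4 CPM. Squamous markers also moved in SCC1, where 10 of 12 rose (22.5% of all genes) and 1 fell (22%). Their sum in SCC1 went from 2846 to 4408 CPM up to 8611 to 14600 CPM. Their part in the results above was not tested.

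With PBS, the lines differed in most of the family, as they did in most of all genes tested. By the same 30-library fit, 9 of 10 members differed between SCC1 and SCC6 (66.5% of all genes), 9 between SCC1 and SCC25 (66.4%) and 10 between SCC6 and SCC25 (69.9%). MMP1 and MMP10 were highest in SCC6, followed by SCC25 and SCC1: the means of MMP1 were 1251 ± 804, 73.6 ± 20.5 and 18.9 ± 10.99 CPM (SD, n = 5). MMP13 and MMP2 were highest in SCC25, followed by SCC6 and SCC1, at 217 ± 18.6, 27.3 ± 18.4 and 0.419 ± 0.175 CPM for MMP13. MMP9 ran the other way, with 128 ± 45.6 CPM in SCC1, 20.1 ± 3.20 in SCC25 and 2.90 ± 2.32 in SCC6. MMP3 was ordered SCC25, SCC1, SCC6. With flow cell as a covariate, an alternative chosen after seeing the data, 8 members differed between SCC1 and SCC6 (46.2% of all genes), 8 between SCC1 and SCC25 (54.4%) and 4 between SCC6 and SCC25 (40%), the last being MMP13, MMP3, MMP10 and MMP14. In that fit the difference of SCC6 minus SCC25 was not called for MMP1 (3.15, edgeR adjusted p = 0.12) or MMP2 (-0.96, 0.077), and for MMP9 it turned from -2.77 to 0.50 (0.64). The difference of SCC1 minus SCC6 in MMP3 was not called either (1.38, 0.053).

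MMP14 with PBS was at 1228 ± 61.8 CPM in SCC25, 882 ± 137 in SCC1 and 199 ± 130 in SCC6 (SD, n = 5). SCC25 and SCC1 were not called different in the fit whose 30 libraries share 1 estimate of the spread (edgeR adjusted p = 0.15). Their PBS libraries nevertheless did not overlap, at 1157 to 1301 CPM in SCC25 and 709 to 1028 CPM in SCC1. TIMP2 was ordered SCC1, SCC6, SCC25, at 288 ± 16.2, 195 ± 13.4 and 160 ± 10.99 CPM, and the lower pair, which differed by 0.32 ± 0.114 (0.015), lost the call without the SCC6 library of day 5 (0.24, 0.086) or the SCC25 library of day 1 (0.26, 0.071). TIMP3 was ordered SCC6, SCC25, SCC1, although with flow cell as a covariate its difference between SCC6 and SCC25 turned from 0.67 to -0.24 (edgeR adjusted p = 0.79). TIMP1 was highest in SCC25, and SCC1 and SCC6 were not called different (0.19 ± 0.155, 0.29), although they were without the SCC6 library of day 1 (0.34, 0.046). No pair of lines was called different in TIMP1 with flow cell as a covariate (edgeR adjusted p = 0.12, 0.85 and 0.2 for SCC1 against SCC6, SCC1 against SCC25 and SCC6 against SCC25). Over all alternatives the adjusted p ranged from 0.01 to 0.47 for TIMP2 between SCC6 and SCC25 and from 0.041 to 0.67 for TIMP1 between SCC1 and SCC6.

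**Figure D4:**
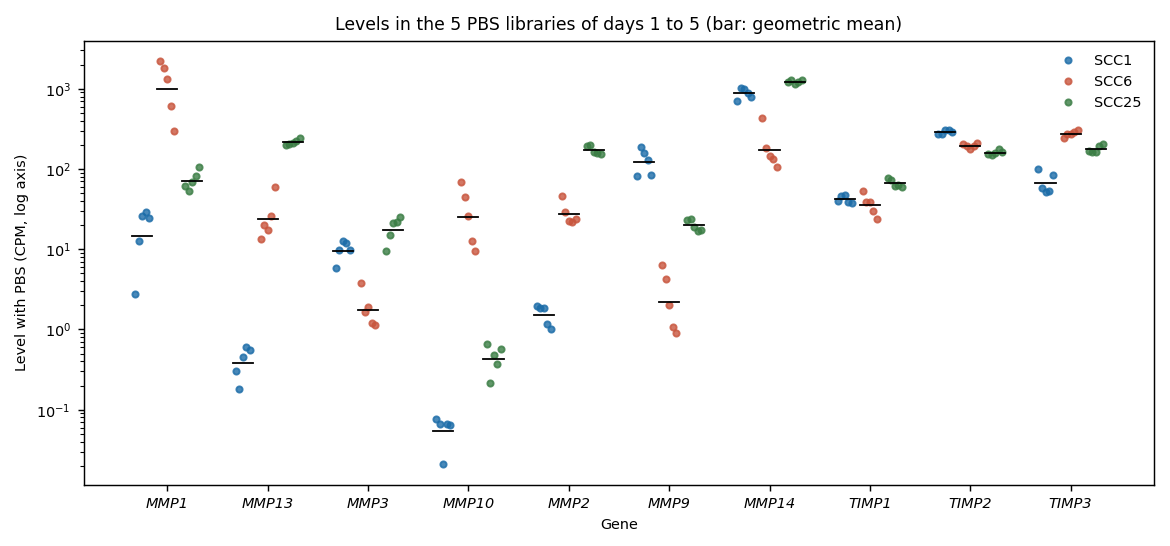
Level of each gene in CPM (log axis) in the 5 PBS libraries of days 1 to 5 of each line, ordered by day from left to right within a cluster of points, with a bar at the geometric mean. MMP1 with PBS lies between 294 and 2222 CPM in SCC6 and between 2.80 and 28.9 in SCC1, while TIMP2 lies between 148 and 307 CPM in all 3 lines.

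Whether these genes move with time in culture without cetuximab was asked from the slope over the PBS libraries of days 0 to 5 (n = 6 per line). In SCC6, 7 of 10 members fell with time, beside 38.3% of all genes called, 16.5% upwards and 21.8% downwards. MMP10 fell by 0.91 ± 0.0613 per day on the log2 scale (edgeR adjusted p = 0.00015), from 236 CPM on day 0 to 9.51 on day 5. MMP1 had a slope of -0.75 ± 0.0579 (0.00015), MMP9 of -0.66 ± 0.0722 (0.00059), MMP3 of -0.58 ± 0.0841 (0.0018), MMP14 of -0.49 ± 0.0554 (0.00077), TIMP1 of -0.28 ± 0.0299 (0.00055) and MMP2 of -0.27 ± 0.0459 (0.0032). MMP13, TIMP2 and TIMP3 were not called. MMP2 and MMP14, which rose with cetuximab in SCC6, thus fell over these days with PBS. Days 0 and 1 of SCC6 were sequenced on 1 flow cell and days 2 to 5 on another, so time and flow cell moved together. Within the second flow cell alone, an alternative chosen after seeing the data (n = 4), 5 members fell (9.9% of all genes called), and MMP3 (-0.22, edgeR adjusted p = 0.32) and MMP2 (-0.10, 0.28) were lost. There the slope was -0.90 for MMP1, -0.80 for MMP9, -0.79 for MMP10, -0.24 for TIMP1 and -0.24 for MMP14, whose slope over all 6 libraries was -0.49. Over days 0 to 5 with flow cell as a covariate 4 were called (5.44%), since MMP10 was lost as well (-0.90, 0.064). Without day 0 MMP13 was called (0.48, edgeR adjusted p = 0.014), without day 5 its slope was -0.01 (0.95), and without day 2 TIMP3 was called (0.06, 0.045). Over all alternatives the adjusted p ranged from 0.014 to 0.95 for MMP13 and from 0.019 to 0.32 for TIMP3.

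In SCC25, 4 of 10 members had a called slope (13.7% of all genes), with 2 higher (8.79%) and 2 lower (4.9%). MMP3 rose by 0.24 ± 0.0461 per day (edgeR adjusted p = 0.0082) and MMP13 by 0.10 ± 0.0186 (0.0026), and TIMP1 (-0.09 ± 0.018, 0.0026) and MMP2 (-0.07 ± 0.0205, 0.026) fell. Without day 5 only 2 were called, since MMP3 (0.25, 0.073) and MMP2 (-0.08, 0.11) were lost. Without day 0, MMP13 was lost (0.07, 0.053) while MMP1 (0.21, 0.0036) and MMP9 (-0.13, 0.023) were called. Leaving out day 1 or day 4 also ended the call of MMP2 (-0.07, 0.093, and -0.07, 0.067), and leaving out day 2 made one for MMP10 (-0.45, 0.033). In SCC1 MMP1 rose by 0.71 ± 0.142 per day (0.036), the only call among 8 members tested (3.95% of all genes, 2.6% higher and 1.35% lower), and it was lost without day 0 (adjusted p = 0.22), day 1 (0.15), day 2 (0.053) or day 4 (0.13). Without day 5, the only PBS library of SCC1 on another flow cell, MMP3 (0.39, 0.009) and TIMP3 (-0.33, 0.028) were called in SCC1 as well. The adjusted p over all alternatives ranged from 0.00085 to 0.25 for MMP1 in SCC1, from 9.3e-16 to 0.073 for MMP3 in SCC25, from 0.0035 to 0.11 for MMP2 in SCC25 and from 3.6e-05 to 0.053 for MMP13 in SCC25.

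Whether the cetuximab change differed between days 1 to 3, which hold 2a and 2b in SCC6, and days 4 to 5 was asked next. Within the earlier and the later period 6 and 6 of 9 members were called in SCC1 (29.5% and 29.8% of all genes), 9 and 7 of 10 in SCC6 (20.3% and 37.5%) and 4 and 3 of 10 in SCC25 (7.85% and 2.77%). For the difference between the periods edgeR called 0 members in each line (0% of all genes), but at an unadjusted p under 0.05 there were 1 member in SCC1 (7.09% of all genes), 6 in SCC6 (29.2%) and 0 in SCC25 (2.84%). DESeq2 called 0 (0.158%), 5 (14.3%) and 0 (0.0145%). In SCC6 the cetuximab libraries of days 4 and 5 are the only ones on their flow cell and the deepest of the series, at 80727478 and 75170052 estimated counts, so that for the treated libraries period and flow cell cannot be told apart. The MMP14 change was 1.19 ± 0.36 on days 1 to 3 and 3.48 ± 0.479 on days 4 to 5 (difference 2.29 ± 0.569, edgeR adjusted p = 0.096). The MMP2 change was 1.86 ± 0.232 and 3.26 ± 0.299 (difference 1.40 ± 0.359, 0.096), and that of MMP10 was -3.95 ± 0.395 and -1.23 ± 0.437 (difference 2.72 ± 0.573, 0.096). Without the PBS library of day 1 these 3 were called (MMP14 1.66, 0.02, MMP2 1.07, 0.021, MMP10 2.32, 0.033), and without that of day 3 they and MMP9 were (MMP14 2.56, 0.049, MMP2 1.61, 0.049, MMP10 3.00, 0.048, MMP9 2.13, 0.049). In SCC25 MMP9 was called without the cetuximab library of day 3 (-0.99, 0.046). Over all alternatives the adjusted p ranged from 8.8e-34 to 0.28 for MMP14, from 3.2e-10 to 0.28 for MMP2, from 6e-20 to 0.28 for MMP10 and from 0.0009 to 0.29 for MMP9 in SCC6, and from 0.046 to 1 for MMP9 in SCC25.

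The other genes of the family and of its control were followed as 4 lists. Of 17 other MMP and TIMP genes, 8 of 12 tested were called in SCC1 (6 higher, 2 lower, 44.5% of all genes), 3 of 11 in SCC6 (2 higher, 1 lower, 30.1%) and 2 of 12 in SCC25 (both higher, 18.2%). The called genes whose log2 CPM averaged at least 1 were MMP19, which cleaves basement membrane proteins, at -0.84 ± 0.168 (edgeR adjusted p = 0.0012) and the membrane-type MMP16 at -0.36 ± 0.113 (0.02) in SCC1, MMP11 (stromelysin-3) at 2.21 ± 0.53 (0.0088) in SCC6 (also called in SCC1, at 0.67 ± 0.231, 0.03) and the membrane-type MMP15 at 0.54 ± 0.149 (0.026) in SCC25. The list median was 0.51, -0.18 and 0.33 in SCC1, SCC6 and SCC25.

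Of 18 activators, inhibitors and partners of MMPs, 9 of 15 tested were called in SCC1 (3 higher, 6 lower), beside 44.5% of all genes. In SCC6 10 of 16 were called (4 and 6), beside 30.1%, and in SCC25 7 of 16 (1 and 6), beside 18.2%. The list medians were -0.20, 0.14 and -0.30 in SCC1, SCC6 and SCC25. The urokinase receptor PLAUR, which focuses plasmin, an activator of MMP proenzymes, at the cell surface, fell in all lines (-1.95 ± 0.216, -2.40 ± 0.359 and -0.46 ± 0.11 in SCC1, SCC6 and SCC25). Urokinase itself, PLAU, fell in all lines as well (-1.45 ± 0.19, -1.71 ± 0.298 and -0.29 ± 0.0881), in SCC1 from 1406 ± 361 to 507 ± 89.5 CPM (SD, n = 5). TFPI2, a protease inhibitor of the matrix, fell in SCC6 (-1.97 ± 0.122) and SCC25 (-1.56 ± 0.159), and LCN2, which binds MMP9, fell in SCC6 (-1.96 ± 0.183). SERPINE2, an inhibitor of urokinase and thrombin, fell in SCC1 (-1.33 ± 0.275) and SCC25 (-0.90 ± 0.214). RECK, a membrane-anchored MMP inhibitor, rose in all lines (0.33 ± 0.097, 1.34 ± 0.215 and 0.43 ± 0.0826). The hyaluronan receptor CD44, which can hold MMP9 at the cell surface, fell in all lines (-1.0 ± 0.0568, -0.56 ± 0.157 and -0.36 ± 0.0636).

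ADAM and ADAMTS proteases are relatives of the MMPs that shed surface proteins or cut proteoglycans. Of 21, 11 of 15 tested were called in SCC1 (4 higher, 7 lower), beside 44.5% of all genes. In SCC6 6 of 16 were called (4 and 2), beside 30.1%, and in SCC25 6 of 19 (2 and 4), beside 18.2%. The list medians were -0.29, 0.15 and 0.12 in SCC1, SCC6 and SCC25. ADAM8 fell in SCC1 (-2.79 ± 0.339) and SCC25 (-1.30 ± 0.178), as did ADAM19 (-2.86 ± 0.199 and -0.82 ± 0.13). ADAMTS15 rose in SCC1 (2.41 ± 0.323) and SCC6 (1.47 ± 0.379), and ADAMTS12 (1.53 ± 0.154) and ADAM12 (1.19 ± 0.128) rose in SCC6. ADAM12 went the other way in SCC1, where it fell at low level (-2.36 ± 0.356, from a mean of 1.03 to 0.195 CPM). ADAM28 rose in SCC1 (1.47 ± 0.153) and SCC25 (0.43 ± 0.12), ADAMTS6 fell in all lines (-1.10 ± 0.15, -0.92 ± 0.211 and -0.66 ± 0.102 in SCC1, SCC6 and SCC25), and ADAMTS9 fell in SCC6 (-0.96 ± 0.292) and rose in SCC25 (0.87 ± 0.152).

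Of 17 AP-1 and ETS family factors, 11 were called in SCC1 (4 higher, 7 lower), beside 44.5% of all genes. In SCC6 12 were called (5 and 7), beside 30.1%, and in SCC25 9 (1 and 8), beside 18.2%. The list medians were -0.29, -0.25 and -0.35 in SCC1, SCC6 and SCC25. The AP-1 subunit FOSL1 fell in all lines, by 2.68 ± 0.198, 1.96 ± 0.15 and 1.11 ± 0.117 on the log2 scale in SCC1, SCC6 and SCC25, and FOS fell in all as well (-2.09 ± 0.119, -2.43 ± 0.187 and -0.97 ± 0.225). The ETS factor ELK3 fell by 1.52 ± 0.0977 in SCC1, 1.48 ± 0.202 in SCC6 and 0.56 ± 0.0732 in SCC25, and ETV4 by 0.45 ± 0.112, 1.56 ± 0.146 and 1.09 ± 0.117. ETS1 fell by 1.44 ± 0.101 in SCC1 and 0.55 ± 0.0705 in SCC25, and FOSB by 1.11 ± 0.22 in SCC6 and 1.06 ± 0.133 in SCC25. All genes of these lists named here have an edgeR adjusted p under 0.05, and they were named by size of change among the called genes of each list whose log2 CPM averaged at least 1 in a line, with each further line in which they were called.

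Over the 30 libraries of days 1 to 5, with each gene centred on its mean in its line, the genes most like MMP1 among 11238 were PRDM1, a transcriptional repressor (Pearson r 0.972), MLKL, an effector of necroptosis (0.956), PTAFR, the receptor for platelet-activating factor (0.954), PTPN12, a phosphatase (0.952), and PLAUR (0.951). The most unlike were ATXN1 (-0.959) and IQCJ-SCHIP1 (-0.955). Within SCC1 and SCC6 each of these 7 had an absolute r of 0.951 or more, but within SCC25, where MMP1 was not called, r ran from -0.47 (MLKL) to 0.561 (PTAFR). Among the members, r with MMP1 was highest for MMP10 (0.739), MMP3 (0.733) and TIMP1 (0.726) and lowest for TIMP2 (-0.813), MMP2 (-0.692) and MMP14 (-0.666). These values describe 30 libraries that share lines, treatment and flow cells.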

How the data were processed

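RNA was measured by poly(A) RNA sequencing with a stranded kit. The authors deposited 1 table of estimated counts per gene, made with Salmon 0.8.2 per the submitters' processing notes (builds hg19 and GRCh37) and summed to genes with tximport per the study's methods. For the annotation and the strand setting: not given in the sources used here. Estimated counts were rounded, filtered with filterByExpr, scaled by TMM and tested with edgeR 4.0.16 (robust quasi-likelihood, R 4.3.3), with Benjamini-Hochberg adjustment over all genes tested and a threshold of 0.05. DESeq2 1.42.0 served as an alternative. Scripts were tested on simulated data. CPM values were scaled over all 33 libraries, and log2 ratios of CPM used a pseudocount of 0.1. Daily ratios compare libraries of the same labelled day, except that 2a and 2b of SCC6 were set against the mean log2 level of PBS days 1 and 2. Estimated counts summed to 28508758 to 80727478 per library, and errors are SD or SE over 5 libraries per group, which cover 5 labelled days except in SCC6 with cetuximab (4), and over 6 PBS libraries for slopes.

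Groups came from the sample labels. Alternatives were other tools, scalings, filters and thresholds, day or flow cell in the fit, and each library left out. The members and the gene lists were chosen with earlier results of these data known. In SCC1 and SCC25, deviations of same-day libraries from their group means correlated at 0.12 or more and 0.23 or more for every day. Libraries of different days reached like or higher values. In SCC25 PBS of day 2 correlated at 0.64 with cetuximab of day 1, and in SCC1 PBS of day 5 at 0.38 with cetuximab of day 4. These values therefore do not settle whether the days pair the libraries. In SCC6 the same-day correlation was not positive for every day (-0.19 on day 4). Named genes of the lists are the at most 4 of largest change per list and line among called genes whose log2 CPM averaged at least 1, and 1 gene that this rule names is not reported here. Genes like MMP1 are the 5 highest and 2 lowest correlations. Positions are from GENCODE on GRCh37 and promoters from RefSeq on GRCh38.p14, with none converted.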

Additional observations from a re-analysis of the deposited data

Results flagged for a closer look

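Among 60 groups of 5 libraries, 1 library stood apart from the others by Dixon's criterion in 2, and chance gives about 1 in 20. MMP10 in SCC1 with PBS was at 0.0208 CPM on day 3, a single estimated count, where the others lay between 0.0639 and 0.0762 CPM. MMP14 in SCC1 with cetuximab was at 749.9 CPM on day 1, where the others lay between 883 and 936 CPM.

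The cetuximab change differed between the 3 lines, by the edgeR test of the line-by-treatment terms, in 9 members. The adjusted p was 5.3e-06 for MMP1 (log2 fold change -5.72 in SCC1, -7.04 in SCC6 and 0.68 in SCC25), 0.021 for MMP13 (-0.53, 1.46 and 0.52), 0.00017 for MMP3 (-4.05, -1.85 and -1.48) and 0.0007 for MMP10 (-3.10 in SCC6 and 0.27 in SCC25). It was 3.2e-07 for MMP2 (-0.29, 2.48 and 0.31), 0.0067 for MMP9 (-3.22, -1.03 and -1.56) and 0.0002 for MMP14, which was at 2.16 in SCC6 and 0.29 in SCC25 and not called in SCC1. It was 0.0033 for TIMP2 (0.53, 1.16 and 0.56) and 1.1e-06 for TIMP3 (2.21, -0.06 and 0.06). With flow cell as a covariate MMP13 and TIMP2 missed the threshold (adjusted p = 0.11 for each).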

How the results depend on the processing

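Of the values of single genes, 600 of 670 under another setting and 1596 of 1648 with 1 library left out kept their direction and their side of the threshold, and every value that turned was one that was not called, except 4 PBS differences between lines with flow cell as a covariate, an alternative chosen after seeing the data. Depth limits MMP10 and MMP13 in SCC1, which rest on few counts, and intervals over days cover this design only. With cetuximab MMP1 and MMP3 in SCC1 also rest on few, at 5 to 27 and 12 to 38 estimated counts per library. Low as well were MMP3 in SCC6 with cetuximab (16 to 46) and MMP10 in SCC25 on days 1 to 5 (7 to 40). The cause of the changes below was not tested. Without the filter on low counts the period fit of SCC6 used 38333 genes in place of 19150. Its median prior degrees of freedom became infinite (4.95 with the filter). The median also rose without the filter in SCC1 (from 6.16 to 71.6) and in SCC25 (from 4.67 to 24), where 0 members were called.

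In SCC25, 2 members were called when a log2 fold change of at least 1 was also asked. For the SCC1 trend over PBS days, DESeq2 called 2 members, and 0 were called without the filter or at an adjusted p under 0.01. For the SCC6 difference between periods, DESeq2 called 5 members (14.3% of all genes) and 7 were called without the filter. Shares of all genes were not counted for the other settings of this paragraph. Nor were they for the fits with 1 library left out or with the day block below. Such counts therefore show only how far the calls held.

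With 1 library left out, the number of members called ran from 6 to 7 in SCC1, 8 to 9 in SCC6 and 5 to 7 in SCC25 for cetuximab, 9 to 9 for the difference between lines, and 9 to 10 (SCC1 against SCC6), 9 to 9 (SCC1 against SCC25) and 9 to 10 (SCC6 against SCC25) for PBS levels. It ran from 0 to 3 in SCC1, 7 to 8 in SCC6 and 2 to 5 in SCC25 for the trend over PBS days, and from 0 to 0, 0 to 4 and 0 to 1 for the difference between periods. Some uncalled values turned sign among these fits. The cetuximab difference ran from -0.0768 to 0.0487 for MMP14 in SCC1 (with 0.0375 and 0.046 among them), from -0.169 to 0.0253 for TIMP3 in SCC6 and from -0.013 to 0.132 for TIMP3 in SCC25. The PBS slope ran from -0.0722 to 0.607 for MMP9, from -0.0017 to 0.164 for MMP14 and from -0.048 to 0.0479 for TIMP1 in SCC1, from -0.0089 to 0.477 for MMP13 and from -0.0114 to 0.0278 for TIMP2 in SCC6, and from -0.0966 to 0.215 for MMP1 in SCC25 (with -0.0156 and -0.000223 among them). The period difference ran from -2.39 to 0.032 for MMP1 and from -0.0198 to 0.62 for MMP9 in SCC1, from -1.56 to 0.615 for MMP1 in SCC6, and from -0.505 to 0.0627 for MMP3 (with 0.0522) and from -0.381 to 0.0895 for TIMP1 in SCC25.

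Under other settings, MMP14 in SCC1 was at 0.0514 with library totals, 0.00806 with the day block, 0.0739 with day 0 added, 0.152 with flow cell as a covariate and 0.137 within 1 flow cell. MMP2 in SCC1 was at 0.32 with flow cell as a covariate and 0.304 within 1 flow cell. TIMP3 in SCC6 was at 0.11 without both day 2 cetuximab libraries, and MMP10 in SCC25 at -0.482 with day 0 added. With flow cell as a covariate, within 1 flow cell and without cetuximab days 3 to 5, MMP1 in SCC25 was at -0.222, -0.224 and -0.224 and TIMP3 at -0.163, -0.165 and -0.165. With flow cell as a covariate, 4 members differed between SCC6 and SCC25 with PBS and 4 had a called PBS slope in SCC6. These PBS differences turned sign: 0.0502 for TIMP1 in SCC1 minus SCC25, and 0.497 for MMP9, 0.506 for TIMP1 and -0.244 for TIMP3 in SCC6 minus SCC25 (each called without the covariate), and -0.456 for TIMP1 in SCC1 minus SCC6. With library totals the SCC1 slopes of TIMP1 and TIMP2 were -0.0124 and -0.0138.

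With day as the replicate block, 6 members were called in SCC1 and 7 in SCC25, where MMP2 was gained (0.30, edgeR adjusted p = 0.01, range over its alternatives 0.0049 to 0.15), and the block changed no other call there. In SCC6, where the numbers do not pair the libraries, 8 were called with 2a as day 1 and 8 with 2b as day 1. For the difference between lines 9 were called with the block. Scaling by library totals moved the median of all genes by 0.18 (SCC1 against SCC6) and -0.15 (SCC6 against SCC25) in the PBS comparisons.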
